A study of Mus musculus with 12 samples.

Results

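The glycolytic enzymes that could be read on these arrays were glucose-6-phosphate isomerase (Gpi1), glyceraldehyde-3-phosphate dehydrogenase (Gapdh) and phosphoglycerate kinase 1 (Pgk1). They were chosen by probe name: 1 catalogue probe for Gpi1 and 4 control-type probes, named mouse GAPDH 3 and 5 and mouse PGK1 3 and 5. These 5 probes, each printed in 10 spots, stood beside 60691 transcript probes, of which 45 could be given a gene name. The suffixes 3 and 5 are not explained in the files, and the probes are called Gapdh probe 3 and so on here. Of a list of 53 genes of glucose uptake, glycolysis and the adjoining pathways, these 3 had a named probe and 50 did not, so no other step of the pathway was measured by name.

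The RNA came from MPC5 cells, a mouse podocyte line, in which control siRNA (siNC) or siRNA against METTL3 (Si#METTL3) had been transfected. Both groups were then held in high glucose, 30 mmol/L for 24 h, and cells in lower glucose were not analysed here. Each of the 3 control and 3 knockdown arrays carried immunoprecipitated RNA (IP) in Cy5 and supernatant RNA (Sup) in Cy3, which makes 12 samples. The labels call the replicates biological and do not name the antibody. The array names of the knockdown replicates other than replicate 3 differ only by an added suffix. Whether these came from separate cultures could not be checked, so n = 3 counts arrays here. In both groups the array name of replicate 3 begins differently from the others, and the sources used here do not say why. No named probe existed for Mettl3 or for any of 29 markers of podocytes and other kidney or blood cells, so neither the knockdown nor the cell type could be checked on these arrays.

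In glycolysis, Gpi1 turns glucose 6-phosphate into fructose 6-phosphate, Gapdh oxidises glyceraldehyde 3-phosphate and makes NADH, and Pgk1 makes ATP in the step that follows Gapdh. Gapdh and Pgk1 are abundant in most cells, and both are widely used as reference genes. METTL3 is the catalytic subunit of the complex that writes m6A, a methyl mark on adenosines of mRNA, and arrays of this format are used to compare marked RNA with the RNA left in the supernatant.

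The promoters of Gpi1 and Pgk1 are shown as context, since total RNA of most of these probes correlated over the arrays. That pattern rested in part on control array 2, left out Pgk1 probe 5 and was shared by other named probes, as described further on. The 250 bases before the start of each gene were taken from RefSeq, assembly GRCm38.p6, which matched all 3 symbols. Capitals mark the GC box, GGGCGG or CCGCCC, and the core of the HIF motif, ACGTG or CACGT, both searched on both strands. The Gpi1 stretch lies at chr7:34230337-34230586 on the minus strand and the Pgk1 stretch at chrX:106186850-106187099 on the plus strand.
Gpi1: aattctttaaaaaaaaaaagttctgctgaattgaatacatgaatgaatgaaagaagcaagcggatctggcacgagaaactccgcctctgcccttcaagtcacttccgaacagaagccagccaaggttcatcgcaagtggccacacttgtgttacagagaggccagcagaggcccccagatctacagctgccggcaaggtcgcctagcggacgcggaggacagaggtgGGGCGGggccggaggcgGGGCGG
Pgk1: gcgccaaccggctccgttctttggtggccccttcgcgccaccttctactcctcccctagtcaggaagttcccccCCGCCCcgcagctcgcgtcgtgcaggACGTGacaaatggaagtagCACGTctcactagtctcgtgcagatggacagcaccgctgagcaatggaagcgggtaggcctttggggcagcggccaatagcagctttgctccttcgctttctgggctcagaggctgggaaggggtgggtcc
The Gpi1 stretch held 2 GC boxes and 0 HIF cores. The Pgk1 stretch held 1 GC box and 2 HIF cores. The Gapdh stretch, searched but not printed since it lies within the annotated span of the gene, held 0 of each. Of 32851 promoter stretches of this length, 32.7% held a GC box and 16.6% a HIF core. These matches describe letters in the window and were not tested against the array values.

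All 5 probes were bright enough to be measured in both channels. Over the 6 arrays, all 60 spots of each probe were well above background in Cy5 and in Cy3, and 0 were saturated. The background-subtracted signal of Gpi1 ran from 3346 to 6631 in Cy5 and from 5283 to 7727 in Cy3. That of Pgk1 probe 5 was far lower, from 31.0 to 93.0 in Cy5 and from 186 to 346 in Cy3. With the local background at 16.5 to 19 in Cy5 under that probe, its IP signal was the nearest to background of the 5. Brightness also depends on the probe's own sequence, so levels of different probes are not set against each other. After spots marked as outliers were left out, 4 to 10 spots of a probe remained per array in Cy5 and 7 to 10 in Cy3, with the 4 in Gapdh probe 3 on control array 2.

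The arrays were not laid out evenly. Slide 1 held control array 1 and the 3 knockdown arrays, and slide 2 held control arrays 2 and 3, with array 2 scanned apart from the rest. Control array 2 had the lowest 75th percentile of the summed processed signal, 7.72 on the log2 scale against 8.92 to 9.56 on the other arrays. Before dye normalization it was also the lowest but close to the rest, 6.72 against 6.81 to 7.12. Between 37.6% and 51.1% of transcript probes were well above background in Cy5 and between 75.2% and 81.2% in Cy3. Slide and group can be told apart only through control array 1, so values within slide 1 and values without control array 2 are given beside the results.

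The question set by the design was how the knockdown differed from control in high glucose. The first readout was total RNA, log2 of Cy5 plus Cy3 less the array's 75th percentile. All 5 probes had lower means in the knockdown, by 0.26 to 0.60 on the log2 scale. Gpi1 did not pass limma's adjusted threshold of 0.05. The exact test used for the 4 control-type probes cannot pass 0.05 with 3 arrays a group. The median difference of the 47647 transcript probes tested was itself -0.15.

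Total RNA of Pgk1 probe 3 was 7.44, 8.39 and 7.35 in control and 7.07, 7.33 and 6.96 in knockdown, each in the order of the replicate numbers. Every knockdown array lay below every control array, though knockdown array 2 missed the lowest control array by little, and control array 2 stood well above the other 5. The means were 7.72 ± 0.58 and 7.12 ± 0.19 (SD, n = 3), a difference of -0.60 or a fold of 0.658 (exact two-sided permutation p = 0.1, the smallest that 3 arrays against 3 allow). Without control array 2 the difference was -0.27, and within slide 1 it was -0.32.

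Total RNA of Gapdh probe 3 was 5.75, 6.42 and 5.86 on the control arrays and 5.47, 5.70 and 5.50 on the knockdown arrays. Again the groups did not overlap and control array 2 was the highest. The means were 6.01 ± 0.36 and 5.55 ± 0.12 (SD, n = 3), a difference of -0.45 or a fold of 0.731 (exact two-sided permutation p = 0.1, the smallest possible). It was -0.25 without control array 2 and -0.19 within slide 1.

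The other probe of each gene gave groups that overlapped. Gapdh probe 5 read 5.73, 6.76 and 5.69 in control and 5.45, 5.77 and 5.76 in knockdown, with control array 2 alone above the rest. Its difference of -0.40 (exact two-sided permutation p = 0.6, n = 3) was -0.05 without control array 2. Pgk1 probe 5 read 1.49, 1.60 and 1.35 in control and 1.41, 0.92 and 0.73 in knockdown. Here knockdown array 1 lay among the controls and knockdown arrays 2 and 3 below them, so that control array 2 did not carry the difference. It was -0.46 (exact two-sided permutation p = 0.2, n = 3), with -0.40 without control array 2 and -0.47 within slide 1.

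Total RNA of Gpi1 was 6.64, 7.08 and 6.59 in control and 6.32, 6.65 and 6.55 in knockdown. The groups overlapped, and control array 2 was the highest. The means were 6.77 ± 0.27 and 6.51 ± 0.17 (SD, n = 3). The difference of -0.26 had a standard error of 0.21 and a 95% interval from -0.75 to 0.22 (limma, adjusted p = 0.811 over all tested probes). It was -0.11 without control array 2 and -0.13 within slide 1.

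**Figure D1:**
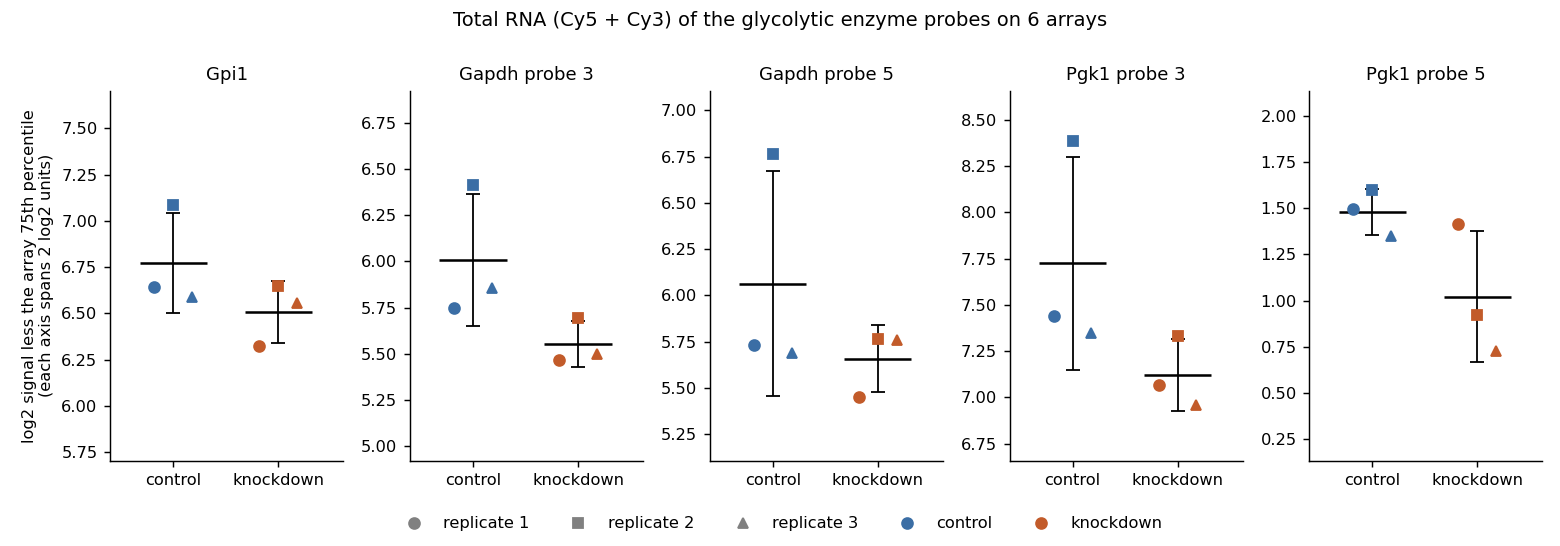
Total RNA (log2 of Cy5 plus Cy3 less the array's 75th percentile) of each probe, with 1 point per array, control in blue and knockdown in orange, marker shape for the replicate number, and mean and SD as line and bar. Control replicate 2 (blue square) is the highest point in all 5 panels, and the groups do not overlap for Gapdh probe 3 and Pgk1 probe 3.

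Of the 5 probes, 2 had knockdown arrays wholly below control in total RNA and 0 wholly above. Among transcript probes with values on all arrays, 10.6% were wholly below and 1.37% wholly above, and 0% passed limma's adjusted threshold of 0.05. The count wholly below was 0 with the array median in place of the 75th percentile, where 8.02% of transcript probes were wholly below. It was also 0 with the deposited constants (1.63%, with 7.82% wholly above), no scaling (1.38%) and quantile normalization (6.97%). Normexp with loess (23.2%) and outlier spots kept (4.38%) gave 0 as well. Normexp gave 1 (30.6%), and background-subtracted signal without dye normalization (8.05%) and the median over spots (10.6%) gave 2. The count was 4 with spike-in scaling, where 8.93% of transcript probes were wholly below. At an unadjusted p under 0.05 limma called 2076 of 47647 probes, a share below 0.05. The difference of Pgk1 probe 3 had 7.48% of transcript probes below it, that of Pgk1 probe 5 14.1%, that of Gapdh probe 3 14.5%, that of Gapdh probe 5 18% and that of Gpi1 32.9%. All 5 thus lay on the lower side of a distribution whose centre was below 0, and none at its edge. When the 4 control-type probes were put into the limma table, the interval was -1.28 to 0.07 for Pgk1 probe 3 and -0.97 to 0.07 for Gapdh probe 3, with adjusted p = 0.807 for both.

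**Figure D2:**
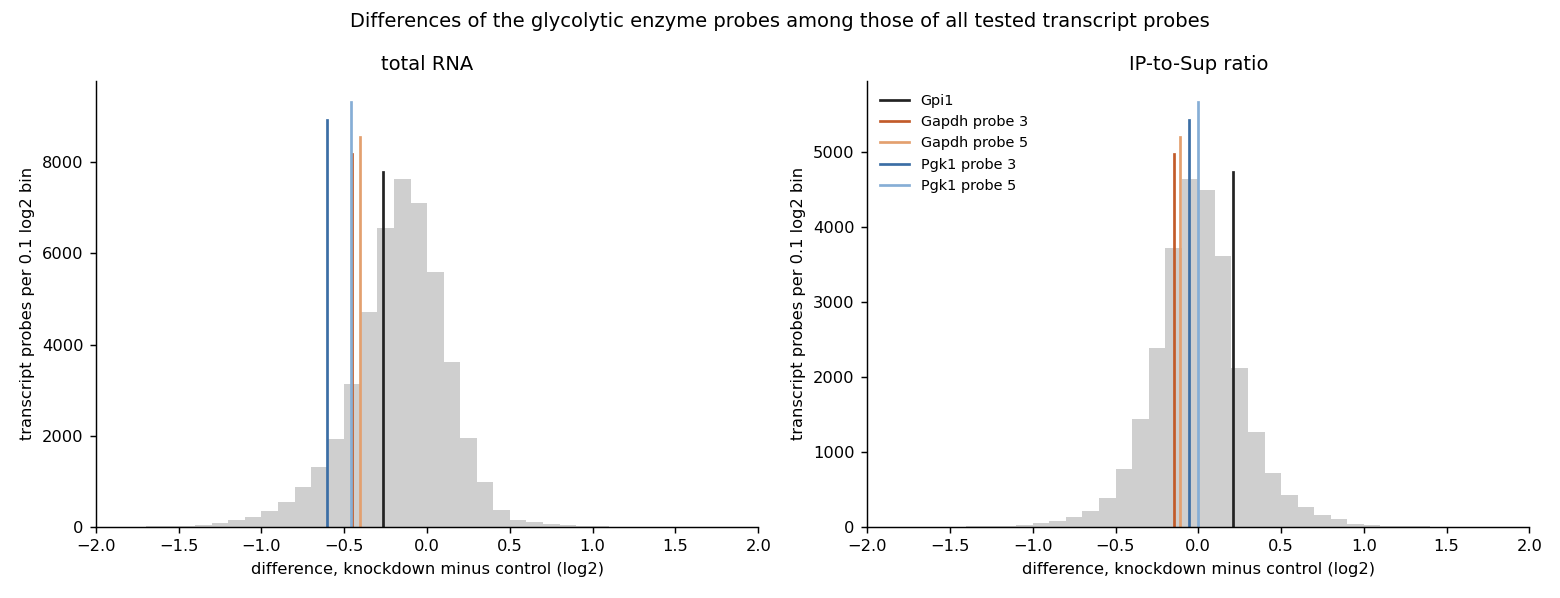
Number of transcript probes by difference, knockdown minus control, in bins of 0.1 log2 units for total RNA (left) and the IP-to-Sup ratio (right), with a vertical line at each glycolytic enzyme probe. In total RNA the 5 lines lie between -0.60 and -0.26, left of the median of -0.15, and in the ratio they lie between -0.14 and 0.21.

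Next, the fractions were taken apart. IP RNA is log2 of Cy5 less that channel's 75th percentile. All 5 means were lower in the knockdown, by 0.12 to 0.61, and the median over 27183 tested transcript probes was -0.15.

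IP RNA of Pgk1 probe 3 was 7.04, 7.90 and 6.88 in control and 6.52, 6.87 and 6.59 in knockdown. The groups did not overlap, by a narrow margin between control array 3 and knockdown array 2. The difference was -0.61 (exact two-sided permutation p = 0.1, n = 3), -0.30 without control array 2 and -0.38 within slide 1. Pgk1 probe 5 read 0.96, 1.07 and 0.76 in control and 0.65, 0.59 and 0.25 in knockdown. Its groups did not overlap either, and here control array 2 was close to control array 1. The difference was -0.43 (exact two-sided permutation p = 0.1, n = 3), -0.36 without control array 2 and -0.46 within slide 1. Both separations depended on the processing. With spike-in scaling the differences were -0.30 and -0.12, with no scaling -0.21 and -0.03 and with the deposited constants -0.37 and -0.20, and both probes overlapped under each. With the array median in place of the 75th percentile, probe 3 overlapped and probe 5 did not.

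IP RNA of Gapdh probe 3 was 4.68, 5.69 and 4.61 in control and 4.19, 4.61 and 4.62 in knockdown, and that of Gapdh probe 5 was 5.23, 6.33 and 5.17, then 4.83, 5.29 and 5.32. In both probes control array 2 lay about 1 log2 unit above the other controls and knockdown array 1 below all arrays. Of the remaining arrays, knockdown arrays 2 and 3 of Gapdh probe 5 lay above control arrays 1 and 3, against the sign of its mean difference. The differences were -0.52 (exact two-sided permutation p = 0.2, n = 3) and -0.43 (exact two-sided permutation p = 0.6, n = 3). Without control array 2 they were -0.17 and -0.05. Gpi1 read 6.73, 6.64 and 6.58 in control and 6.37, 6.54 and 6.66 in knockdown, all within a narrow band. Control array 2 did not stand apart for Gpi1 in this channel. Its difference of -0.12 had a standard error of 0.22 (limma, 95% interval from -0.63 to 0.38, adjusted p = 0.891).

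So 2 of 5 probes were wholly lower in IP RNA and 0 wholly higher, beside 10.2% and 2.30% of transcript probes. Spike-in scaling turned that background to 1.71% and 11% and the deposited constants to 2.76% and 6.48%, with 0 of the 5 probes separated under either. The median difference of all tested probes went from -0.15 to 0.16 and 0.08. With background-subtracted signal, scaled but without dye normalization, 4 probes were wholly lower, all but Gapdh probe 5, beside 12.4% of transcript probes. Gpi1 then differed by -0.37 and Gapdh probe 3 by -0.73. With the median over spots both Pgk1 probes and Gapdh probe 3 were wholly lower, beside 10.2%. Only Pgk1 probe 5 was wholly lower with normexp with loess or quantile normalization, where 12% and 12.6% of transcript probes were. It alone was wholly lower with the array median (9.21%) or outlier spots kept (5.38%) too. The count was 0 with normexp (10.1%) or no scaling (2.69%). By limma's adjusted p, 0% of transcript probes passed, with 1111 of 27183 at an unadjusted p under 0.05, a share below 0.05.

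Sup RNA is log2 of Cy3 less that channel's 75th percentile. The 5 means were again lower, by 0.27 to 0.51, and all groups overlapped. The median over 48519 tested transcript probes was -0.06. Of these, 6.61% had a lower difference than Pgk1 probe 3 and 18.5% a lower one than Gpi1, with the other 3 probes between. Pgk1 probe 3 read 7.65, 8.59 and 7.60 in control and 7.44, 7.65 and 7.21 in knockdown. Gapdh probe 3 read 6.23, 6.76 and 6.41, then 6.12, 6.26 and 6.0. Gapdh probe 5 read 5.98, 6.89 and 5.98, then 5.87, 6.07 and 6.08. In these 3 probes control array 2 was the highest of the 6, and 1 or 2 knockdown arrays reached the lowest control. The differences were -0.51, -0.34 and -0.28 (exact two-sided permutation p = 0.3, 0.2 and 0.6, n = 3). Without control array 2 they were -0.19, -0.19 and 0.03.

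Sup RNA of Pgk1 probe 5 was 1.76, 1.78 and 1.66 in control and 1.89, 1.16 and 1.05 in knockdown. Knockdown array 1 was the highest of all 6 arrays and the other knockdown arrays the lowest, which left a difference of -0.37 (exact two-sided permutation p = 0.4, n = 3). Gpi1 read 6.46, 7.23 and 6.52, then 6.29, 6.68 and 6.42. Its difference of -0.27 had a standard error of 0.24 (limma, 95% interval from -0.83 to 0.30, adjusted p = 1) and was -0.02 without control array 2. With 0 of 5 probes wholly lower and 0 wholly higher, the shares of transcript probes were 3.61% and 1.53%, and 0% passed limma's adjusted threshold. At an unadjusted p under 0.05 it called 585 of 48519, a share below 0.05.

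Equal replicate numbers count as paired in Sup RNA, so the differences within numbers are given as well. They are also given for total RNA, where the pairing was less clear. In Sup RNA those of Gpi1 were -0.16, -0.54 and -0.10, those of Gapdh probe 3 -0.11, -0.49 and -0.41, and those of Pgk1 probe 3 -0.21, -0.94 and -0.39. All 3 pairs were lower for these probes, and 2 of 3 for Gapdh probe 5 and Pgk1 probe 5. In total RNA all 3 pairs were lower for every probe but Gapdh probe 5, with 2 of 3. The share of transcript probes with all 3 pairs lower was not computed, so these counts have no background beside them. The median difference of all tested transcript probes was itself -0.06 in Sup RNA and -0.15 in total RNA. The exact paired test gave p = 0.25, the smallest that 3 pairs allow, for Gapdh probe 3 and Pgk1 probe 3 in both readouts and for Pgk1 probe 5 in total RNA. With the replicate block limma called 3500 of 48311 transcript probes in Sup RNA and 3978 of 45721 in total RNA at an unadjusted p under 0.05. Both shares were above 0.05. Of these probes 3256 and 3724 were lower, and 0 passed after adjustment. Gpi1 had an adjusted p of 0.786 in Sup RNA and 0.663 in total RNA in that fit.

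**Figure D3:**
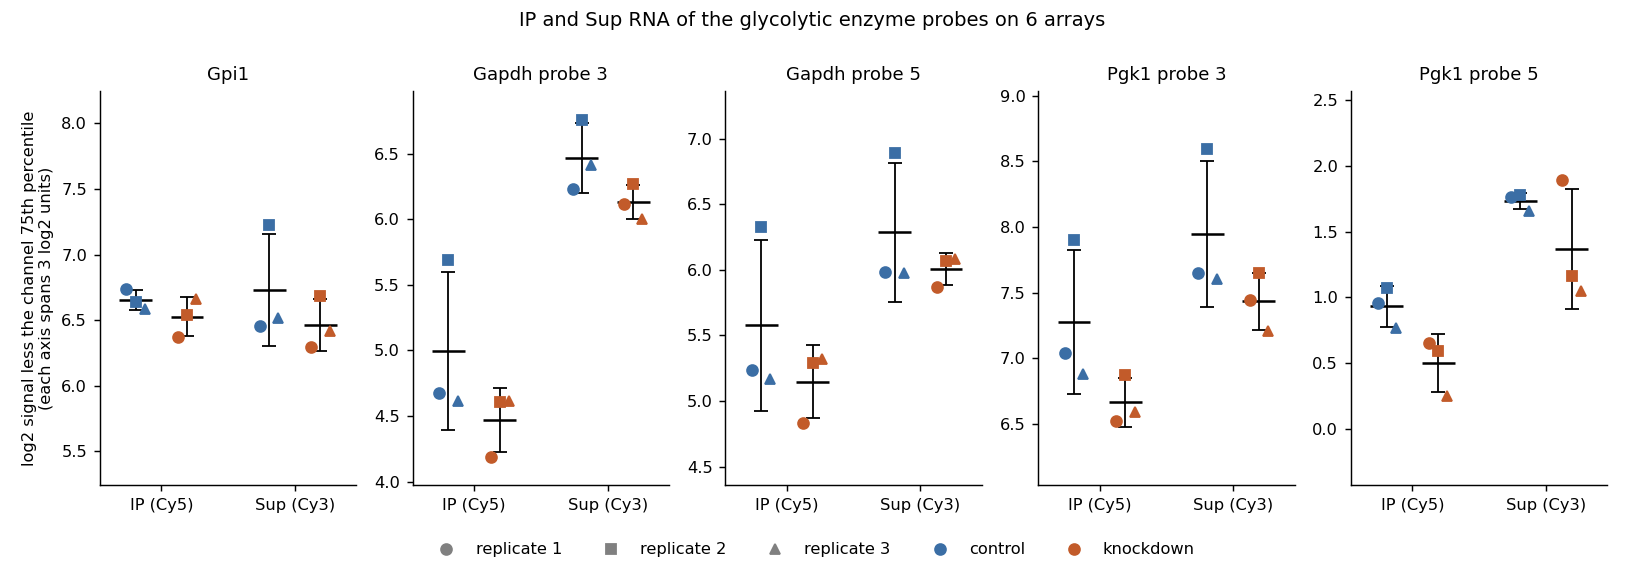
IP RNA (Cy5) and Sup RNA (Cy3) of each probe, as log2 signal less the 75th percentile of the channel, with 1 point per array, control in blue, knockdown in orange, and mean and SD as line and bar. Control replicate 2 (blue square) stands above the other arrays in both channels for Gapdh probe 3, Gapdh probe 5 and Pgk1 probe 3, and only in Sup for Gpi1.

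The signals before dye normalization and scaling were also compared. In Cy3, Gapdh probe 3 had a background-subtracted brightness of 5638, 5531 and 5840 on the control arrays and 4894, 5102 and 5234 on the knockdown arrays. Here control array 2 was the lowest control, and the groups did not overlap. Pgk1 probe 3 had 13689, 18543 and 12966 in control and 11603, 12926 and 12008 in knockdown, also without overlap and with control array 2 far above the rest. Gpi1 had 6249, 7727 and 6172, then 5283, 6637 and 6804, which overlapped. Gapdh probe 5 had 4712, 6208 and 4325, then 4070, 4446 and 5600, and Pgk1 probe 5 had 323, 295 and 286, then 346, 186 and 211, both with overlap. In Cy5 all 5 probes overlapped. Gapdh probe 3, for one, read 1092, 2300 and 808 in control and 966, 1588 and 739 in knockdown. Among transcript probes 2.24% were wholly lower and 1.78% wholly higher in this Cy3 brightness, and 0.221% and 6.25% in Cy5. These brightnesses carry each array's own labelling and scan and are given as a description.

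The last readout was the IP-to-Sup ratio, log2 of Cy5 over Cy3 less the array's median. Since the labels do not name the antibody, this ratio is nearest to the mark that METTL3 writes only if the IP was for that mark. With the processed signal its differences ran from -0.14 to 0.21, every pair of groups overlapped, and the median over 27127 tested transcript probes was -0.0065. The dyes were not swapped, so a probe's own dye bias is in its ratio on every array.

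Gpi1 had ratios of -0.02, -0.81 and -0.13 in control and -0.10, -0.30 and 0.09 in knockdown. All arrays but control array 2 lay near the array median. The means were -0.32 ± 0.43 and -0.11 ± 0.19 (SD, n = 3). The difference of 0.21 had a standard error of 0.25 and a 95% interval from -0.36 to 0.78 (limma, adjusted p = 1). It turned to -0.04 without control array 2 and to -0.09 within slide 1.

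Gapdh probe 3 had ratios of -1.84, -1.24 and -2.0 in control and -2.10, -1.86 and -1.55 in knockdown. All 6 arrays were more than 1 log2 unit below the array median, with control array 2 the least so. The difference of -0.14 (exact two-sided permutation p = 0.6, n = 3) was 0.08 without control array 2. Gapdh probe 5 had -0.99, -0.80 and -1.0, then -1.21, -0.94 and -0.97, a difference of -0.11 (exact two-sided permutation p = 0.6, n = 3).

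Pgk1 probe 3 had ratios of -0.88, -0.88 and -0.92 in control and -1.09, -0.97 and -0.79 in knockdown. The control arrays were close together, with an SD of 0.02, and the knockdown arrays lay on both sides of them. The difference was -0.05 (exact two-sided permutation p = 0.7, n = 3). Pgk1 probe 5 had -1.10, -0.97 and -1.09, then -1.43, -0.78 and -0.96, a difference of -0.0028 (exact two-sided permutation p = 1, n = 3). The size of the ratio differences depended on the dye normalization and the scaling. With quantile normalization of each channel they were -0.61 for Gapdh probe 3, -0.51 for Gapdh probe 5, -0.34 for Pgk1 probe 3 and -0.17 for Pgk1 probe 5. With background-subtracted signal and no dye normalization they were -0.45, -0.43, -0.45 and -0.09. Under each, 1 probe had groups that did not overlap, Gapdh probe 5 with the quantiles and Pgk1 probe 3 with the background-subtracted signal (exact two-sided permutation p = 0.1 each, n = 3), where 10.9% and 5.99% of transcript probes were wholly lower.

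In limma's table with these probes added, the intervals were -0.45 to 0.34 for Pgk1 probe 3, -0.49 to 0.49 for Pgk1 probe 5, -0.73 to 0.44 for Gapdh probe 3 and -0.52 to 0.30 for Gapdh probe 5. All 4 intervals held 0.

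**Figure D4:**
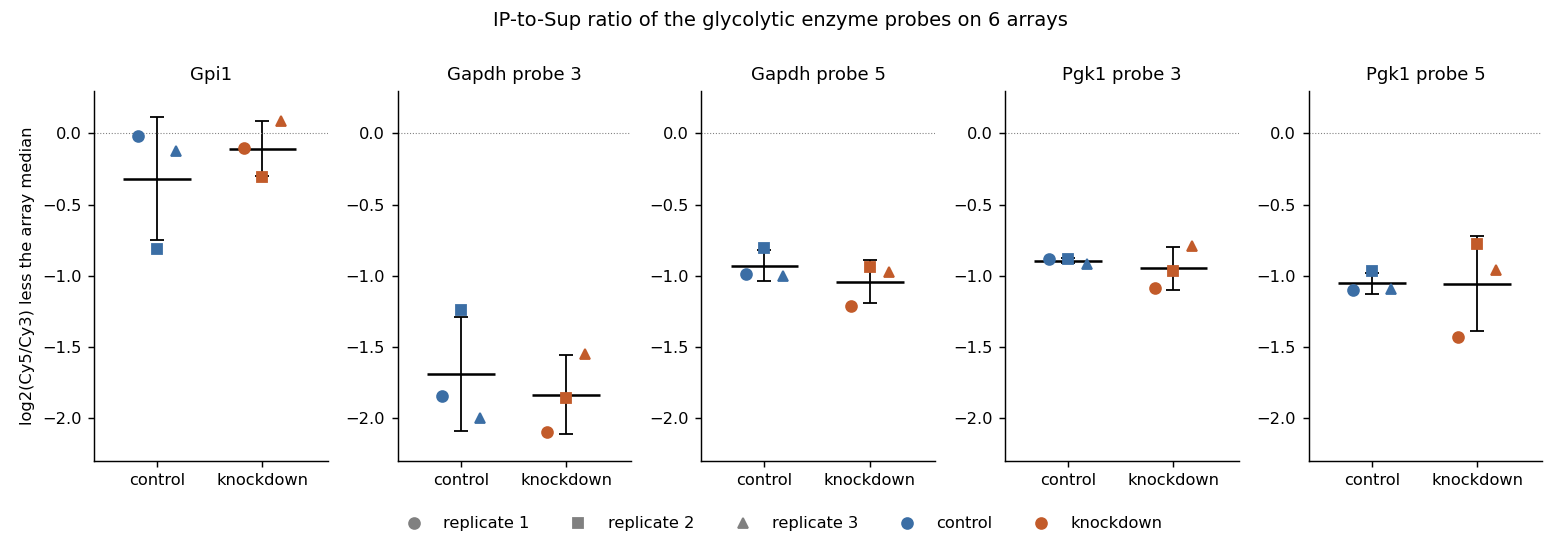
IP-to-Sup ratio (log2 of Cy5 over Cy3 less the array median, dotted line at 0) of each probe, with 1 point per array, control in blue, knockdown in orange, and mean and SD as line and bar. The groups overlap in all 5 panels, and the Gapdh and Pgk1 probes lie below 0 on every array.

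With 0 of 5 probes wholly lower and 0 wholly higher in the ratio, the shares of transcript probes were 4.10% and 3.65%. By limma's adjusted p, 0% passed, with 809 of 27127 at an unadjusted p under 0.05, a share below 0.05.

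Differences between probes on the same array are free of the single constant taken from each array and readout, and were compared next. They still depended on the normalization. In total RNA, Pgk1 probe 3 less probe 5 changed by 0.21 with quantile normalization. Constants set per channel, as in the deposited table, do not cancel in total RNA and were not tried for these contrasts. For each gene, the question in total RNA was whether the contrast of its 2 probes changed with the knockdown. With 3 arrays a group the exact test cannot go below 0.1, so it could not call a change at 0.05. The contrast of Gapdh probe 3 less probe 5 changed by -0.05 (exact two-sided permutation p = 0.9, n = 3) and that of Pgk1 probe 3 less probe 5 by -0.15 (exact two-sided permutation p = 0.7, n = 3). Without control array 2 these were -0.20 and 0.13. In IP RNA, Gapdh probe 3 less probe 5 was -0.58 ± 0.05 in control and -0.68 ± 0.03 in knockdown (SD, n = 3; difference -0.09, exact two-sided permutation p = 0.1, the smallest possible). The groups all but touched, with control array 2 at -0.6371 and knockdown array 1 at -0.6380. With background-subtracted signal, normexp and normexp with loess the difference was -0.07, -0.04 and -0.05 (exact two-sided permutation p = 0.4, 0.5 and 0.4). With quantile normalization it was -0.18 (exact two-sided permutation p = 0.1).

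Between genes, total RNA of Pgk1 probe 3 less Gpi1 was 0.80, 1.30 and 0.76 in control and 0.74, 0.69 and 0.40 in knockdown. The groups did not overlap, and control array 3 and knockdown array 1 lay side by side at the boundary. The difference was -0.34 (exact two-sided permutation p = 0.1, n = 3) and -0.17 without control array 2. Pgk1 probe 3 less Gapdh probe 3 changed by -0.15 (exact two-sided permutation p = 0.4, n = 3) and Gapdh probe 3 less Gpi1 by -0.19 (exact two-sided permutation p = 0.2, n = 3). With 3 arrays a group, unequal change of the enzymes could not be called for any pair.

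Over the 6 arrays, total RNA of Gapdh probe 3 and Pgk1 probe 3 correlated at r = 0.98, and that of Gpi1 with Gapdh probe 5 at 0.96. Without control array 2 these were 0.88 and 0.94, while Gapdh probe 5 with Pgk1 probe 3 went from 0.93 to 0.34. Pgk1 probe 5 went its own way, with r = 0.33 to Gpi1 and -0.25 without control array 2. All values of an array share its scaling, so these are descriptions. Among 26 named transcript probes, Tm9sf1, a membrane protein of the TM9 family, was most like Gpi1 (r = 0.97), Gapdh probe 3 (0.98) and Pgk1 probe 3 (0.98). Next for Gpi1 and for Gapdh probe 3 came Olfr166, an olfactory receptor gene (0.97 and 0.94), and Prdx2, a peroxiredoxin (0.95 and 0.92). For Pgk1 probe 3 they were the MHC class I gene H2-Q7 (0.97) and Gsdmd, gasdermin D (0.96). The median over the 26 was 0.68 for each of the 3.

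The direction in total RNA depended on the scaling. With quantile normalization of each channel the differences were 0.18 for Gpi1, 0.02 and 0.06 for Gapdh probes 3 and 5, and -0.10 and -0.31 for Pgk1 probes 3 and 5. With the constants of the authors' deposited table they were -0.02, -0.20, -0.16, -0.36 and -0.22. With no scaling they were 0.14, -0.05, -0.00037, -0.20 and -0.06. Both Pgk1 probes stayed below 0 under all of these, Gapdh probe 3 turned only with quantile normalization, and the median of all tested probes moved from -0.15 to 0.09 with the deposited constants and 0.25 with no scaling.

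**Figure D5:**
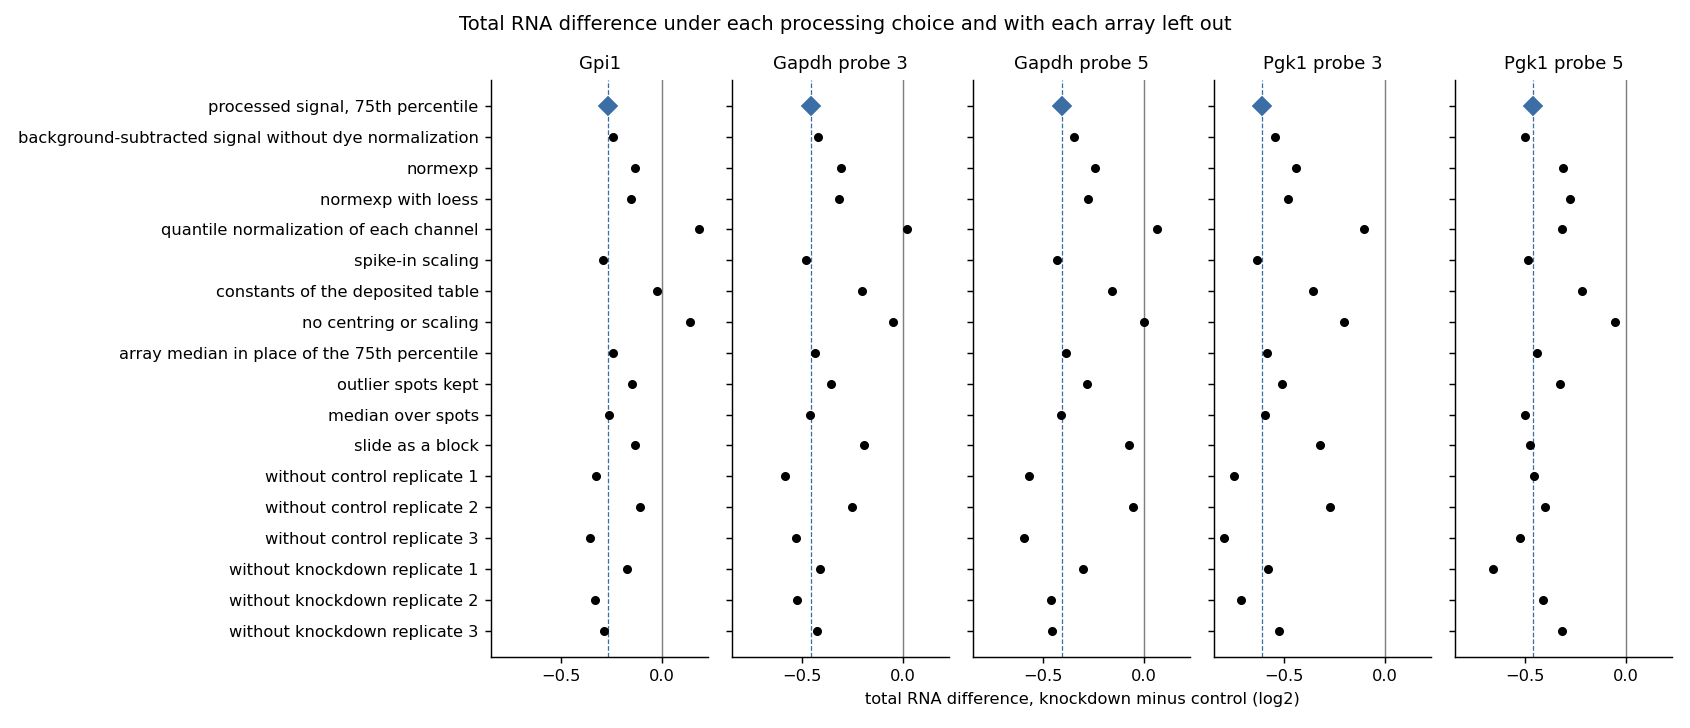
Total RNA difference, knockdown minus control (log2), of each probe under 11 other processing choices and with each of the 6 arrays left out; the blue diamond and dashed line mark the value given first, the grey line 0. Leaving out control replicate 2 moves all 5 differences toward 0, and quantile normalization puts Gpi1 and both Gapdh probes above 0.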

How the data were processed

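The authors scanned each array into spot intensity values with Agilent Feature Extraction, version 11.0.1.1, per the file headers, which give mm9 as the build. Its processed signal had the background subtracted and both dyes brought to a common level. The authors' deposited table gives log2 values of 27920 probes, equal to log2 of that signal less a constant per array and channel. The sources used here do not say how the constants were set. Spots marked as outliers were left out and log2 values averaged over spots. Transcript probes entered a test if 3 or more of the 6 arrays read them well above background. Gpi1 was tested in the fit across all transcript probes (limma 3.58.1, R 4.3.3, version 1.17.8 of data.table, Benjamini-Hochberg at 0.05), and the control-type probes, which stay out of that fit, by exact permutation of the 6 arrays (16 tests, unadjusted, since none can go below 0.1). The fit's code was run on simulated arrays with noise independent between probes. That run did not cover deviations shared by the probes of an array, such as those of control array 2. The number of arrays limits the precision, and p-values measure only the spread between these samples. Members, lists and the rule for like genes (the 3 named probes most correlated in total RNA) were chosen with earlier results of these data known. Normexp used the median signal in place of the planned mean signal. Equal replicate numbers deviated together in Sup RNA (r from 0.323 to 0.582, against at most 0.291 between unequal numbers), so they count as paired there. In total RNA the ranges overlapped (0.180 to 0.345 against at most 0.191), as in IP RNA (0.0692 to 0.303 against at most 0.233). In both, 2 of 3 control arrays were most like the knockdown array of their own number, against 3 of 3 in Sup RNA. The paired values in total RNA are thus a description.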

Additional observations from a re-analysis of the deposited data

How the results depend on the processing

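For the 20 differences (5 probes in 4 readouts), 339 alternatives could move the estimate: 304 kept the direction, 35 reversed it and 0 passed a threshold, and 8 differences were never reversed. Another 69 keep the estimate or repeat the fit without control array 2 by construction (blocks of replicate or scan, filters, added probes, the array median for the ratio) and are not counted. The causes of the reversals were not tested. Quantile normalization of each channel gave, in Sup RNA, 0.25 for Gpi1, 0.17 for Gapdh probe 3, 0.245 for Gapdh probe 5 and 0.024 for Pgk1 probe 3. In total RNA it gave 0.18 for Gpi1, 0.022 for Gapdh probe 3 and 0.065 for Gapdh probe 5, and for Gpi1 0.15 in IP RNA and -0.099 in the ratio. It gave 0.11, 0.29 and 0.21 for Pgk1 probe 3 less probe 5 in IP, Sup and total RNA. With no scaling Gpi1 had 0.28 in IP, 0.027 in Sup and 0.14 in total RNA, Gapdh probe 5 0.016 in Sup RNA and Pgk1 probe 5 0.045 in the ratio. The deposited constants gave 0.11 for Gpi1 in IP RNA and 0.031 for the Pgk1 probe 5 ratio, and spike-in scaling 0.19 for Gpi1 in IP RNA and ratios of 0.022 and 0.074 for Pgk1 probes 3 and 5. Background-subtracted signal gave -0.14 for the Gpi1 ratio and 0.044 for Pgk1 probe 3 less probe 5 in Sup RNA. The Pgk1 probe 5 ratio was 0.15 with normexp, 0.064 with normexp and loess and 0.020 with outlier spots kept, and that of Pgk1 probe 3 was 0.015 with normexp and loess. The scan as a block gave ratios of 0.083 for Gapdh probe 3, -0.036 for Gpi1 and 0.041 for Pgk1 probe 5, and 0.025 for Gapdh probe 5 in Sup RNA. The slide as a block, chosen after seeing the data, gave ratios of 0.0063, -0.090 and 0.045 for the same probes, 0.021 for Gapdh probe 5 and 0.0088 for Gpi1 in Sup RNA, and 0.082, 0.18 and 0.15 for Pgk1 probe 3 less probe 5 in IP, Sup and total RNA. Leaving out 1 array at a time gave ratios from -0.30 to 0.083 for Gapdh probe 3, -0.036 to 0.36 for Gpi1, -0.13 to 0.014 for Pgk1 probe 3 and -0.14 to 0.18 for Pgk1 probe 5, and -0.43 to 0.025 for Gapdh probe 5 in Sup RNA. Probe 3 less probe 5 ran from -0.22 to 0.067 in Sup and -0.20 to 0.064 in total RNA for Gapdh, and for Pgk1 from -0.31 to 0.065 in IP, -0.36 to 0.15 in Sup and -0.30 to 0.13 in total RNA. Calls over all transcript probes by limma, 0 in each readout, were 2 in IP and 1 in total RNA with array weights, 1 in each with the scan as a block, 5 in Sup and 8 in total RNA with the slide as a block, and 12 in Sup and 1 in total RNA with spike-in scaling. Leaving out 1 array gave 0 to 1 in IP and in total RNA, with the 1 without control array 2. The replicate block, which treats equal numbers as paired, left the Gpi1 total RNA difference at -0.26 and changed no call. With 3 arrays a group, exact tests of single probes could not pass 0.05.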

Other observations

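The arrays also carry 8 control-type probes named for rat or human Gapdh and Pgk1, which the comparisons above do not use. The sources used here do not say how well they bind mouse transcripts. In total RNA all 4 Pgk1-named probes had lower means in the knockdown, by 0.42 to 0.59 on the log2 scale, and 1 of them had groups that did not overlap, where 10.6% of transcript probes were wholly lower. All 4 Gapdh-named probes were lower as well, by 0.016 to 0.39, again with 1 that did not overlap. In IP RNA the Pgk1-named probes differed by -0.54 to -0.44, with 2 of 4 not overlapping beside 10.2% of transcript probes wholly lower, and the Gapdh-named probes by -0.41 to 0.09, with 0 of 4. In Sup RNA they differed by -0.51 to -0.28, with 1 of 4 not overlapping beside 3.61% of transcript probes wholly lower, and by -0.29 to 0.05, with 0 of 4. In the ratio they differed by -0.12 to 0.02 and by -0.10 to 0.11, and all groups overlapped. These probes share targets and arrays with the mouse-named probes and are not independent of them.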
